A study of Mus musculus with 2 samples.

Results

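The 10 genes described here are Ptx3, Hp, Lcn2, Saa1, Saa2, Saa3, Orm1, Cp, Lbp and Il1rn. They encode acute phase and humoral innate proteins that fat can make and that in part are also made by liver. The genes were taken by name from the 37315 genes listed in both deposited count files, and all 10 were found. Gene expression was measured by poly(A) RNA sequencing of subcutaneous (inguinal) white fat from male C57BL/6 mice, 23 weeks old, with obesity induced by a high-fat diet. One group received vehicle and the other entacapone, an inhibitor of catechol-O-methyltransferase used in Parkinson disease that is also known to inhibit the RNA demethylase FTO. Each group held 1 library, with 13620056 counted reads for vehicle and 12979673 for entacapone. The diet, strain and sex were shared by both groups. The sources used here state neither the dose and duration nor how many mice each library pools. With 1 library per group there was no replicate error and no significance test, so each difference below is one between these 2 libraries. The list was chosen by known role with the CPM ratios of these same libraries in view, so its differences are a description.

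The acute phase response is the change in secreted proteins that follows injury, infection or inflammation. Cytokines such as interleukin 6, interleukin 1 and tumour necrosis factor act through STAT3, NF-kB and C/EBP transcription factors to raise transcription of these genes. Liver is the main source of most of the circulating proteins, but adipocytes and the stromal and immune cells of fat also make several of them, and haptoglobin and serum amyloid A are known products of obese fat.

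The Saa genes lie in 1 cluster on chromosome 7, and their start regions are shown because Saa1 and Saa3 were both lower in the entacapone library while Ptx3, on chromosome 3, was higher. RefSeq start sites (GRCm38.p6) were available for 7 of the 10 genes, at 10 start sites in all. The 250 bases before the start are printed on the gene's own strand, with matches to C/EBP, STAT, AP-1 or NF-kB motifs in capitals. All capitals in these 4 windows are C/EBP matches (TTNNGNAA on either strand). The windows are chr7:46742981-46743230 (minus strand) for Saa1, chr7:46751583-46751832 (plus) for Saa2, chr7:46715677-46715926 (minus) for Saa3 and chr3:66219637-66219886 (plus) for Ptx3.
Saa1: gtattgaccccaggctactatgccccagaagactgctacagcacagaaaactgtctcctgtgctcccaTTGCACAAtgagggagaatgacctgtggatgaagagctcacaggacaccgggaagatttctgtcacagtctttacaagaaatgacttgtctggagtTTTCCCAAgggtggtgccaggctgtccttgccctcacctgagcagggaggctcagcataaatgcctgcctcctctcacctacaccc
Saa2: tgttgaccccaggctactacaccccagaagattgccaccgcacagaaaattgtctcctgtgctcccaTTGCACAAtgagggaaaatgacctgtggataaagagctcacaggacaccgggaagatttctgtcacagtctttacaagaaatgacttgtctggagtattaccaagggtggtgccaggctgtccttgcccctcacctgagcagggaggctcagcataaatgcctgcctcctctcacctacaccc
Saa3: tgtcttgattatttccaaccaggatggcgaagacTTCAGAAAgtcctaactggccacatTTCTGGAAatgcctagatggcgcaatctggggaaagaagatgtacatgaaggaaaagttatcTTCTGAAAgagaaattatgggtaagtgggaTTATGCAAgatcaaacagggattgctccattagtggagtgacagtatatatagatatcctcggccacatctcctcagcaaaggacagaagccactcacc
Ptx3: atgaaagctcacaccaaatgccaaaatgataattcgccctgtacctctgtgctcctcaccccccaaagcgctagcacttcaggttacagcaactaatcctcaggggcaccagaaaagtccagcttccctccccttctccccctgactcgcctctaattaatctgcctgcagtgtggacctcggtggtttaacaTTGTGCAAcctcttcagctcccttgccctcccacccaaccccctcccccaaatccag
The Saa1 and Saa2 windows were near copies, with 238 identical bases over 251 aligned columns (94.8%), whereas Saa1 and Saa3 shared 48.9% of columns, close to the 44.6% of the unrelated pair Saa3 and Ptx3. The C/EBP letters occurred 4 times before Saa3, 2 times before Saa1 and 1 time each before Saa2 and Ptx3. Of the windows not printed, those of Il1rn held 0, 1 and 3 matches, and those of Cp and Lcn2 held 1 each. The C/EBP letters are short and common, since 36.8% of 32851 start windows of the same length held at least 1 match. AP-1 letters (TGANTCA) occurred before Cp and Il1rn, against 6.75% of all windows, and the STAT letters (TTCNNNGAA, 7.02% of windows) and the NF-kB consensus (7.25%) occurred in none of the 10. These matches describe letters in a window and not binding. The map of motif positions shows the 10 start sites.

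**Figure D1:**
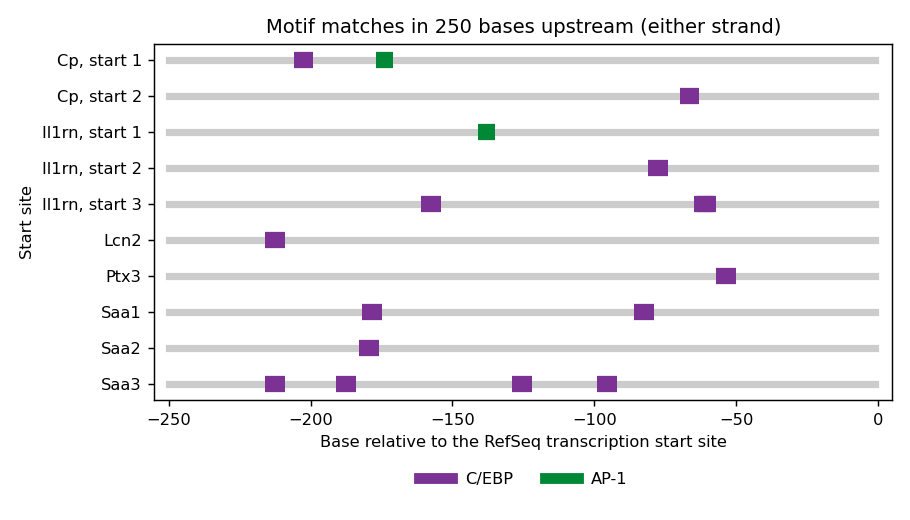
Motif matches in the 250 bases upstream of the 10 RefSeq start sites of 7 genes, drawn by position in bases relative to the start site (x axis), with 1 grey bar per start site and coloured blocks for C/EBP and AP-1 matches on either strand. Saa3 has 4 C/EBP matches, and the 2nd and 3rd Il1rn start sites overlap, so they share 1 match.

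Levels were computed as CPM, read counts scaled to library size with the TMM method. Ratios of entacapone to vehicle are given with exact 95% limits derived by the Clopper-Pearson method from the read pair of each gene, which hold counting error alone. Per kilobase of merged exons, Hp was the most abundant of the 10 genes in both libraries, at 4599 CPM per kb in vehicle and 2498 in entacapone. It ranked 6th and 16th among the 35449 genes with an annotated length. Orm1 followed at 222 and 247 CPM per kb and Lbp at 110 and 64.9, and these 3 did not overlap in their counting intervals. Scaled by the principal transcript instead, Orm1 and Lbp were close in vehicle, at 222 and 211 CPM per kb, and their intervals overlapped. At the other end, Il1rn stood at 0.850 and 0.325 CPM per kb and Saa2 at 0.460 and 0.341, with Saa1 between 0.441 and 1.20. In both libraries the intervals of these 3 overlapped from each to the next in the order. The middle of the order depended on the length used. In vehicle, Ptx3 (7.29) and Saa3 (6.64 CPM per kb) were 5th and 6th by merged exons with overlapping intervals, whereas Saa3 was 4th at 31.2 by the principal transcript, just ahead of Cp at 28.6 with overlapping intervals.

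**Figure D2:**
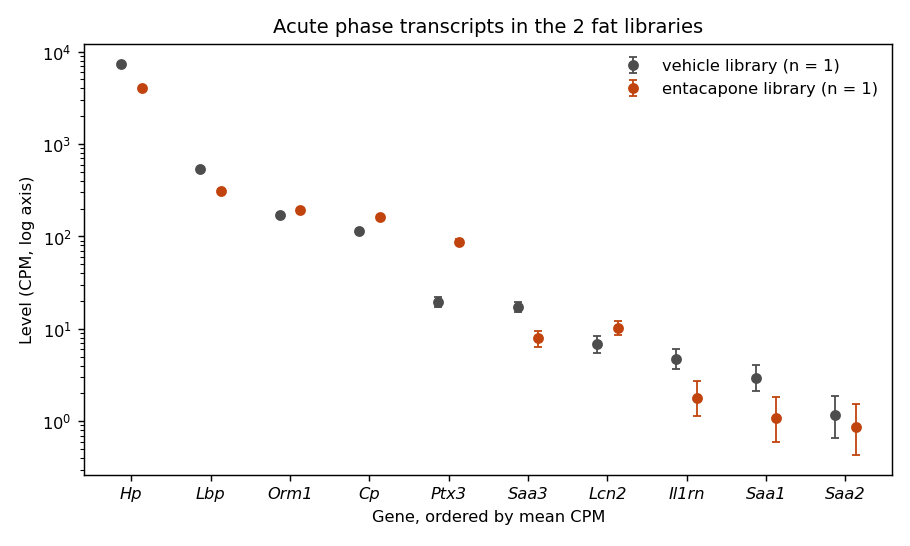
Level of each of the 10 genes in CPM (y axis, log scale) in the vehicle (grey) and entacapone (orange) library, n = 1 each, ordered by mean CPM, with exact 95% Poisson intervals of the counts as bars. Levels run from 7386 CPM for Hp to about 1 CPM for Saa2, and the widest gap between the libraries on the log axis is that of Ptx3. CPM is not scaled to gene length, so heights compare libraries and not genes.

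The 10 genes did not share a direction. A gene was counted as different where the ratio reached 2-fold and its interval excluded a ratio of 1, provided that its mean level was 1 CPM or more. All 10 passed that minimum, and without it the counts were the same. By this rule 1 gene, Ptx3, was higher in the entacapone library, against 1.66% of the 13361 genes tested, and 3 genes, Saa1, Saa3 and Il1rn, were lower, against 3.50%. With differences of any size beyond counting error, 4 genes were higher (Ptx3, Lcn2, Cp and Orm1; 20.2% of all genes) and 5 lower (Saa1, Il1rn, Saa3, Hp and Lbp; 21.1%), and Saa2 was within counting error. Since the list was chosen with these ratios in view, nothing is read from its counts against those shares. The median log2 ratio over the 10 genes was -0.53 (pseudocount 0.5 CPM), beside 0.00 over all genes tested. That median is not a common shift, since it was 0.15 over the 7 genes whose mean reached 5 CPM. In tissue RNA, fewer cells of a type and less RNA per cell cannot be told apart, and marker levels of several cell types differed between these libraries.

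**Figure D3:**
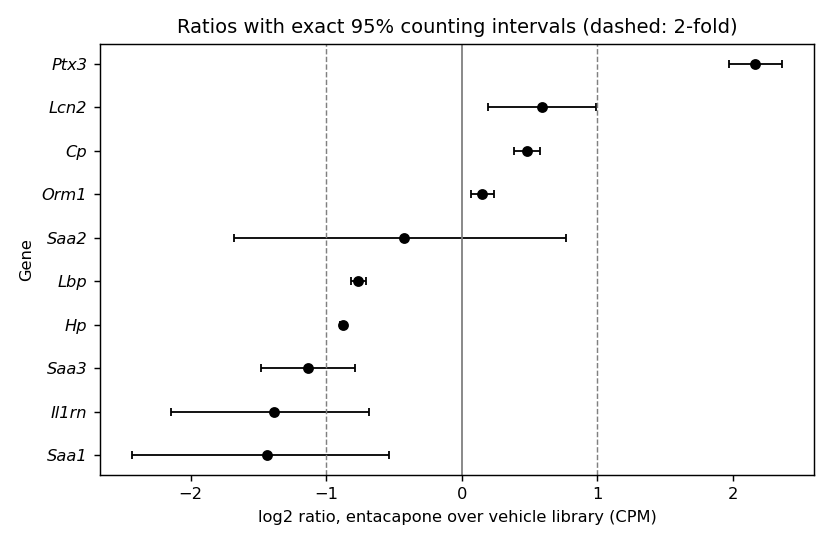
Log2 ratio of entacapone over vehicle CPM (x axis) for the 10 genes, with exact 95% counting intervals as bars, a solid line at no difference and dashed lines at 2-fold. Ptx3 lies alone at the high end at 2.16, and Saa1, Il1rn and Saa3 lie below the lower dashed line.

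Ptx3 encodes the long pentraxin 3, a soluble pattern recognition protein that binds complement components and stabilises hyaluronan-rich matrix, and that stromal and myeloid cells make under interleukin 1, tumour necrosis factor or Toll-like receptor stimulation. The gene (chromosome 3, 66219910 to 66225805, GRCm38) had 270 reads, 19.5 CPM, in vehicle and 1121 reads, 87.6 CPM, in entacapone. It was thus 4.48-fold higher in the entacapone library (3.92 to 5.14), and its rank by CPM per kb moved from 5108 to 1378. Ptx3 lies inside Veph1, which is on the opposite strand, but no exon bases are shared and Veph1 had 2 reads in each library. The nearest genes with reads, Ccnl1 and Shox2, lay within counting error, at log2 ratios of 0.16 (-0.00 to 0.33) and -0.16 (-0.41 to 0.10). Of the cytokine genes known to induce Ptx3, Il1b was at 8 and 7 reads and Tnf at 14 and 8 reads in vehicle and entacapone, too few to show any but a large difference.

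Haptoglobin (Hp), ceruloplasmin (Cp) and lipocalin 2 (Lcn2) handle haemoglobin, copper and iron. Hp (chromosome 8, 109575128 to 109579172), which binds free haemoglobin, had 102025 reads in vehicle and 51339 in entacapone, or 7386 and 4011 CPM. It made up 0.749% of all vehicle reads (0.745 to 0.754, Clopper-Pearson) and 0.396% of all entacapone reads (0.392 to 0.399). Hp was 1.84-fold lower in the entacapone library (1.82 to 1.86), so it missed the 2-fold limit in spite of a very narrow interval. That interval holds counting error alone, and some other scalings moved the ratio past it, as given in the last section. In absolute terms Hp had the largest difference among the 10, at 3375 CPM. Its nearest neighbours did not share it, as Txnl4b was slightly higher (log2 0.31, 0.04 to 0.59) and Dhodh within counting error (0.08, -0.17 to 0.34). Hepatocytes make Hp too, and hepatocyte markers summed to 519 CPM in vehicle and 117 CPM in entacapone. The part of liver RNA in the Hp value was not tested.

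Cp (chromosome 3, 19957054 to 20009145), a copper-carrying ferroxidase that helps to release iron from cells, went the other way. It had 1593 reads (115 CPM) in vehicle and 2055 (161 CPM) in entacapone, a 1.39-fold higher level (1.30 to 1.49). Cp shares 108 exon bases with Hps3 on the opposite strand, and the library kit does not mark strand. Hps3 itself was lower, at a log2 ratio of -0.25 (-0.46 to -0.03), the opposite direction. Lcn2 (chromosome 2, 32384633 to 32388252) encodes a protein that withholds iron by binding bacterial siderophores and that adipocytes and neutrophils release. It stood at 94 reads (6.81 CPM) in vehicle and 131 reads (10.2 CPM) in entacapone, 1.5-fold higher with a wide interval of 1.15 to 1.98. The adjoining gene 1110008P14Rik was also higher, by a log2 ratio of 0.36 (0.19 to 0.52).

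The serum amyloid A genes encode apolipoproteins that join high-density lipoprotein in inflammation. Saa3 (chromosome 7, 46711998 to 46715700), the form typical of mouse fat and macrophages, had 239 reads (17.3 CPM) in vehicle and 101 reads (7.89 CPM) in entacapone. It was 2.19-fold lower in the entacapone library (1.73 to 2.79). Saa1 (46740497 to 46742980), a form mainly made by liver, had 41 and 14 reads, 2.97 against 1.09 CPM, and was 2.71-fold lower (1.45 to 5.39). Saa2 (46751790 to 46754313), its near copy and also a liver form, had 16 and 11 reads, and its interval (log2 -1.68 to 0.77) held both no difference and a 2-fold drop. The fourth gene of the cluster, Saa4, expressed mainly in liver, had 14 vehicle reads and 1 entacapone read (log2 -3.70, -9.10 to -0.98), under the 1 CPM minimum. Hepatocyte and macrophage markers were lower in the same library, with median log2 ratios of -2.97 and -0.92, and their part in the Saa values was not tested.

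Saa1 and Saa2 cannot be separated fully by these reads. Of all windows of the read length (101 bases) in their annotated transcripts, 8.69% of those of Saa1 and 8.36% of those of Saa2 occur exactly in the other gene, and the handling of reads with several placements is not given in the sources used here. Summed, the pair had 57 and 25 reads, a 2.11-fold lower level in the entacapone library (log2 -1.82 to -0.38), a value that does not depend on how reads were split between them. Saa3 and Saa4 shared no such window with another gene. All 4 Saa genes together had 310 and 127 reads, 2.26-fold lower. Genes at the edges of the cluster differed little, with Saal1 at a log2 ratio of -0.06 (-0.45 to 0.33) and Hps5 at -0.21 (-0.38 to -0.04).

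Orm1 (chromosome 4, 63344560 to 63348163) encodes orosomucoid 1, a lipocalin-type plasma glycoprotein that carries lipophilic molecules and dampens immune activity. It was similar in both libraries, at 2381 reads (172 CPM) in vehicle and 2451 reads (192 CPM) in entacapone, 1.11-fold higher (1.05 to 1.18). The neighbouring Orm2 and Orm3 were scarce beside it, with 10 and 8 reads for Orm2 and 10 and 23 reads for Orm3, whose log2 ratio was 1.31 (0.18 to 2.55). Of the 101-base windows of Orm1, 6.67% occur in Orm2. The sum of the 3 genes gave a log2 ratio of 0.16 (0.08 to 0.24), close to that of Orm1 alone.

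Lbp (chromosome 2, 158306493 to 158332852) encodes lipopolysaccharide-binding protein, which passes bacterial endotoxin to CD14 and Toll-like receptor 4. It had 7354 reads (532 CPM) in vehicle and 4011 reads (313 CPM) in entacapone, 1.70-fold lower (1.63 to 1.77), beyond counting error and under the 2-fold limit. Il1rn (chromosome 2, 24336853 to 24351494) encodes the interleukin 1 receptor antagonist, which occupies the receptor without signalling. It had 65 reads (4.71 CPM) in vehicle and 23 reads (1.80 CPM) in entacapone and was 2.62-fold lower, with an interval of 1.61 to 4.42. Macrophage markers, whose cells also make this antagonist, were lower in the same library (median -0.92), and their part in the Il1rn value was not tested. The neighbour Psd4 was lower to a smaller degree (log2 -0.44, -0.82 to -0.05).

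All 10 genes together held 8259 CPM in vehicle and 4786 CPM in entacapone, and Hp made up 89.4% and 83.8% of these reads. Without Hp the other 9 summed to 873 and 775 CPM, a 1.13-fold difference, in which the lower Lbp reads were partly offset by Ptx3, Cp and Orm1.

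The receptors and partners of these proteins were mixed. Of 15 listed genes 13 reached a mean of 1 CPM, and beyond counting error 2 of them were higher and 5 lower (median log2 ratio -0.10). Il1r1, the signalling receptor that Il1rn blocks, was 2.23-fold higher at 76.0 CPM (Poisson interval 71.3 to 81.0) against 34.0 CPM (31.0 to 37.2), while Il1r2, a decoy receptor, was within counting error at 5.94 against 6.15 CPM. Il1rap, the shared accessory chain, was at 0.19 (-0.29 to 0.67). The antagonist and its receptor thus differed in opposite directions between the libraries.

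On the endotoxin side, Tlr4 was slightly higher (log2 0.31, 0.06 to 0.55), and Cd14 (-0.11, -0.38 to 0.17) and Ly96 were within counting error, beside the lower Lbp. Tlr2, which serum amyloid A can engage, was 2.03-fold lower at 3.75 against 7.60 CPM, and P2rx7 was at -0.97 (-1.35 to -0.61). Cd163, the macrophage scavenger receptor for haemoglobin bound to haptoglobin, was lower, at 49.0 CPM (45.2 to 53.0) against 88.6 CPM (83.7 to 93.7), a log2 ratio of -0.85. Macrophage markers were lower in the same library (median -0.92), and their part in the Cd163 value was not tested. The means of Lrp2 and Fpr2 did not reach 1 CPM.

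The inducing cytokines were hardly detected, while the measured receptors listed with them differed by at most 1.42-fold. Il1r1, the interleukin 1 receptor described above, was outside that list and was 2.23-fold higher. The values that follow are log2 ratios. Of 14 genes 7 reached a mean of 1 CPM, 3 of them higher and 1 lower past their counting limits (median 0.04). Il6 had 2 reads in vehicle and 1 in entacapone, so its level could not be compared at this depth. Osmr, the oncostatin M receptor, was at 0.43 (0.27 to 0.58), Il6ra at 0.17 (0.00 to 0.34) and Il6st, the signalling chain shared by the interleukin 6 family, at 0.13 (0.05 to 0.20). Tnfrsf1b, a tumour necrosis factor receptor of immune and endothelial cells, was lower at -0.51 (-0.70 to -0.32), Lif was at -0.89 (-1.93 to 0.08) on 28 and 14 reads, and Lifr was at 0.02 (-0.11 to 0.15).

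Transcription and signalling genes of the response were all 20 measured. Beyond counting error 7 were higher and 4 lower, and their median was 0.02. Cebpd, an inducible C/EBP factor, was 2.31-fold higher at 96.3 against 41.7 CPM (log2 1.21, 1.06 to 1.35). Nfkbia (0.63, 0.51 to 0.75) and Socs3 (0.49, 0.21 to 0.78), which restrain NF-kB and STAT3 and are themselves induced by them, were next. Cebpa, the C/EBP factor of mature adipocytes, was lowest at 913 against 1194 CPM (-0.39, -0.42 to -0.35), and Irak4 (-0.21, -0.50 to 0.09) and Nfkb1 (-0.18, -0.32 to -0.04) followed.

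Other acute phase proteins were mostly lower in the entacapone library by number of genes. Their summed level was not lower, at 4032 CPM in vehicle and 4556 CPM in entacapone over the 24 listed. That sum includes the metallothioneins Mt1 and Mt2, given below, whose higher levels exceed the difference between the sums. The remaining listed genes together were therefore lower in the entacapone library. Of 24 genes 18 were measured, 4 of them higher and 11 lower past their counting limits (median -0.59). Of these, 3 and 8 reached 2-fold, against 1.66% and 3.50% of all genes tested. The lowest were Serpina1b (log2 -3.16, -3.89 to -2.51), an antitrypsin gene with near copies, and the fibrinogen chains Fgg (-2.93, -3.54 to -2.37) and Fgb (-2.83, -3.36 to -2.33), all products of liver. Hepatocyte markers were lower in the same library (median -2.97), and the part of liver RNA in these values was not tested. The highest were the metallothioneins Mt2 at 836 against 302 CPM (1.47, 1.42 to 1.52) and Mt1 at 1018 against 396 CPM (1.36, 1.32 to 1.41), together with Orm3. Metallothioneins bind zinc and copper and respond to glucocorticoids and metals as well as cytokines.

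**Figure D4:**
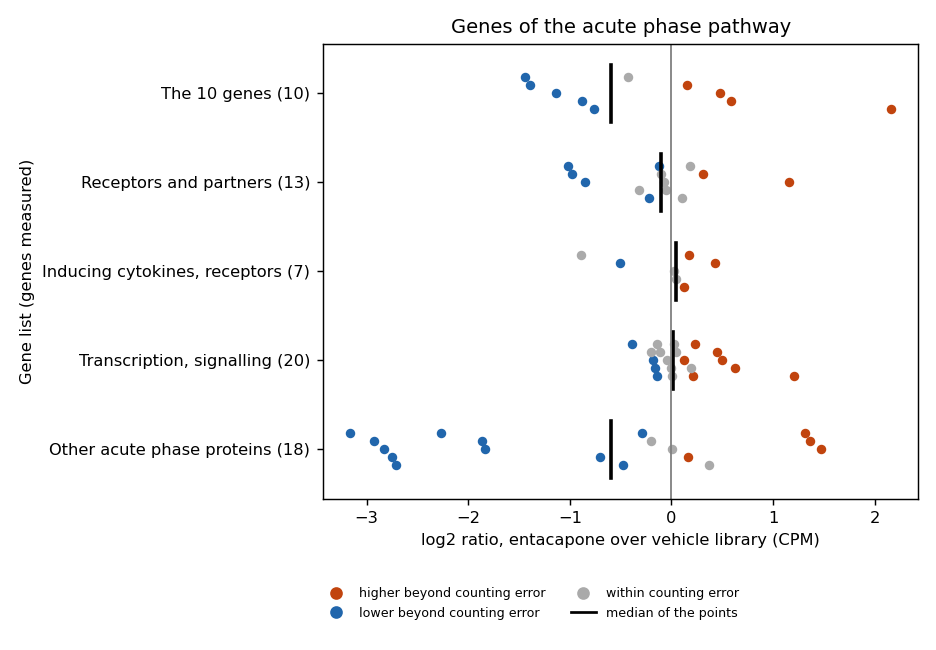
Log2 ratio of entacapone over vehicle CPM (x axis) of each measured gene in 5 lists (rows, number of genes in brackets), coloured by whether the exact 95% counting interval excludes no difference, with the median of the points as a black line (ratios without the pseudocount that the list medians in the text hold). The transcription and signalling genes reach from -0.39 to 1.21, and the other acute phase proteins reach from -3.16 to 1.47.

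Marker genes of other cells differed between the same libraries. List medians here, as above, are of log2 ratios with the 0.5 CPM pseudocount, which draws low genes towards 0, and ratios of single genes are without it. All 23 measured hepatocyte markers were lower in the entacapone library beyond counting error, from Apoa4 at a log2 ratio of -5.99 to Vtn at -0.61, and the sums above are over all 25 listed. Saa1, Saa2, Lbp, Orm1 and Cp are also made by hepatocytes, and the part of liver RNA in their values was not tested either. Albumin (Alb), the highest hepatocyte marker, was at 204 and 66.6 CPM.

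Macrophage markers were also lower, with 13 of 16 measured lower and 1 (Mertk) higher beyond counting error, a median of -0.92 and sums of 1772 and 946 CPM over the 18 listed. Clec4f, a marker of liver macrophages, had 9 vehicle reads and no entacapone read, under the 1 CPM minimum. Timd4 (48 and 41 reads) and Marco (176 and 189 reads), of the same list, were within counting error. The lowest measured marker, Adgre1, was at -1.58. Saa3 and Il1rn, at log2 ratios of -1.13 and -1.39, lay within the range of this list. They also lay within those of the hepatocyte list and the fibroblast list (-1.40 to -0.01), and the part of each cell type was not tested. Of 12 neutrophil markers 4 were measured, 3 lower and 1 (Ltf) higher. Mpo and Ly6g had no read in either library, while S100a8 had 130 reads in vehicle and 57 in entacapone. S100a9 had 12 reads in each library, and Elane had 6 in vehicle and 17 in entacapone, both under the 1 CPM minimum. The list summed to 30.4 and 33.0 CPM, of which Ltf alone made up 3.69 and 17.3 CPM.

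Fibroblast and progenitor markers, which include cells that make Ptx3, were lower beyond counting error in 13 of 15 (median -0.46, sums 8431 and 5352 CPM). None of the 15 was higher beyond counting error, and the part of these cells in the Ptx3 value was not tested. Adipocyte markers, which define this tissue, were abundant in both libraries (sums 55889 and 62188 CPM), with 9 higher and 5 lower of 15 and a median of 0.06. Epithelium markers were higher in 9 of 12 (median 1.19, sums 37.6 and 135 CPM) and skeletal muscle markers in 10 of 11 measured (median 0.69, sums 1329 and 2047 CPM), with Tnnc2 listed at 0 in both. Endothelial markers were split, with 3 higher and 3 lower of 10 (median -0.07, sums 871 and 861 CPM). The part of epithelial or muscle RNA in the higher levels of Ptx3, Lcn2 and Cp was not tested.

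**Figure D5:**
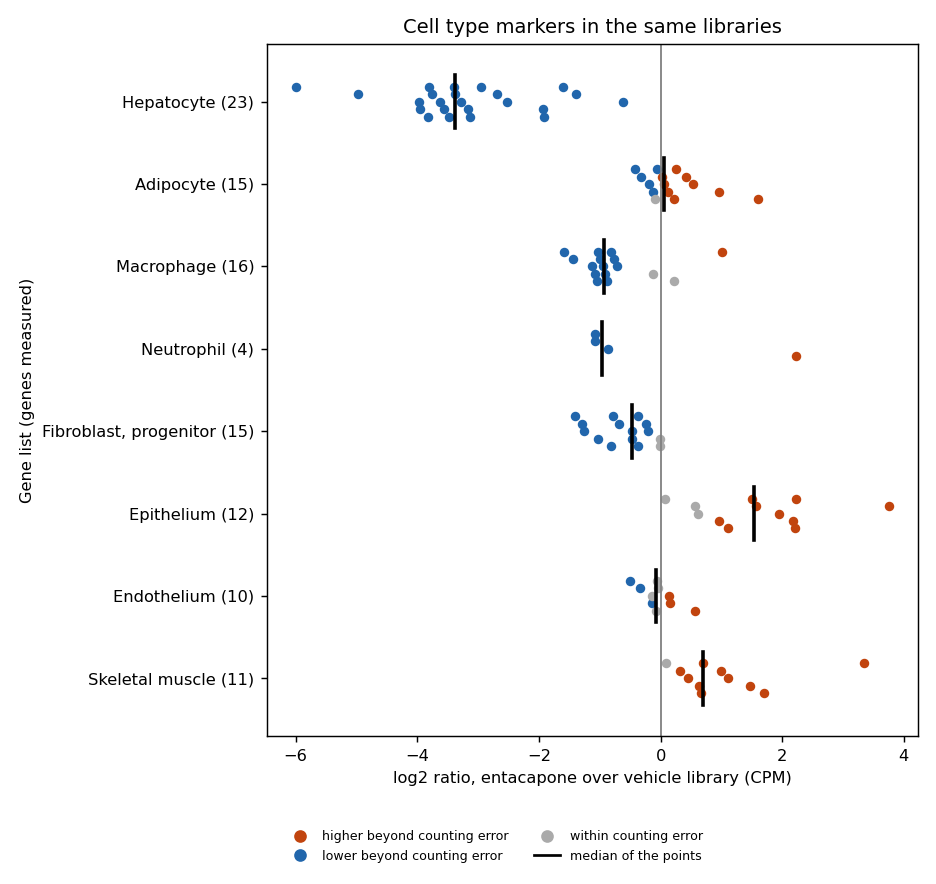
Log2 ratio of entacapone over vehicle CPM (x axis) of each measured marker in 8 cell type lists (rows, number of genes in brackets), coloured by whether the exact 95% counting interval excludes no difference, with the median of the points as a black line (ratios without the pseudocount that the list medians in the text hold). Hepatocyte markers lie far to the lower side, macrophage and fibroblast markers mostly below 0, and epithelium and muscle markers above it.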

How the data were processed

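RNA from white fat was sequenced after TRIzol extraction and oligo(dT) selection with the TruSeq RNA v2 kit, which does not mark strand, per the labels' protocols. The deposited files hold raw counts for Ensembl genes. Per the submitters' processing notes, the tools were TopHat2 2.1.1 and HTSeq 0.6.0 with build mm10; annotation release and counting mode, not given in the sources used here, could alter counts of near copies. Of 37315 identifiers, 35449 matched GENCODE M21 (GRCm38, the same assembly as mm10). CPM values used TMM library sizes from edgeR 4.0.16 (factors 1.01 and 0.986). Intervals were computed with scipy 1.17.1 and tested on simulated counts that held counting error alone. They cover counting error only, since each group held 1 library. Reads carry no molecular identifiers, so copies of 1 molecule would be counted as separate reads and the intervals can be too narrow. Results were recomputed with total counts, upper-quartile scaling, size factors from DESeq2 1.42.0, scaling without hepatocyte genes, and other limits, pseudocounts and lengths. The members and gene lists were chosen with earlier results of these data known. Beyond the 10 members and the Saa and Orm clusters, the rule for named genes took the 3 highest and 3 lowest measured genes of each list, Il6, Il1b and Tnf, and neighbours that differed. Not all of these are described, and any other gene was chosen after its values were seen.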

Additional observations from a re-analysis of the deposited data

How the results depend on the processing

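Under DESeq2 size factors, total counts, upper-quartile scaling and scaling without hepatocyte genes, 4 of the 10 genes differed at least 2-fold and 9 beyond counting error, as in the main analysis, and no single ratio changed direction. Across these scalings and TMM, 200 to 229 of all genes tested were at least 2-fold higher and 458 to 520 lower. Beyond counting error 2185 to 2890 were higher and 2664 to 3274 lower. The log2 ratio of Hp left its counting interval (-0.896 to -0.865) under DESeq2 size factors (-0.899) and total counts (-0.921). The count of 4 became 2 with a minimum of 5 CPM (Ptx3 and Saa3 were left, since Saa1 and Il1rn were no longer tested), 7 with a 1.5-fold limit and 1, Ptx3, with a 3-fold limit. Without Saa1 and Saa2, an alternative chosen after seeing the data, it was 3. The share of all genes was not taken at the 5 CPM, 1.5-fold and 3-fold limits, so these counts are a description. The median log2 ratio of -0.53 turned to 0.15 with a minimum of 5 CPM, where Il1rn, Saa1 and Saa2 drop out, and was -0.41 with a pseudocount of 2 CPM, -0.20 as a mean and -0.31 without Saa1 and Saa2. No paired analysis was possible because each group held 1 library, and no library could be left out. A count of 0 allows up to 3 counts, 0.217 CPM in vehicle and 0.234 CPM in entacapone, and the depth could not resolve Il6, Il1b and Tnf.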
